A study of Rattus norvegicus with 82 samples.

Results

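The genes described here are the cardiac isoforms of the myosin heavy and light chains and the kinase that acts on the ventricular light chain. They were chosen by symbol: *Myh6*, *Myh7*, *Myh7b*, *Myl2*, *Myl3*, *Myl4*, *Myl7* and *Mylk3*. All 8 were found among the 17337 genes of the count table, and all 8 passed the filter on low counts that left 11954 genes for testing. For the major heavy chain pair, the share of *Myh7* among the counts of *Myh6* plus *Myh7* was also taken in each library.

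Hearts of 41 rats were perfused whole with collagenase, and cardiomyocytes were then collected separately from the right (RV) and left (LV) ventricle. This gave 82 RNA-seq libraries in 12 groups. The rats were first-generation crosses of a Wistar Kyoto mother and a Lewis father, with no transgene. Pulmonary artery banding (PAB) loaded the RV and aortic banding (AOB) loaded the LV, in both cases by a clip that was loose when placed and became tight as the animal grew. Animals were taken at a compensated hypertrophic stage (H) or a decompensated failing stage (F), each with sham-operated controls. The groups held 7 Sham-H animals (3 male and 4 female), 6 PAB-H (4 male and 2 female), 6 AOB-H (2 male and 4 female), 9 Sham-F (4 male and 5 female), 6 PAB-F (4 male and 2 female) and 7 AOB-F (4 male and 3 female). By the sample labels, all H animals were 11 weeks old after 7 weeks of treatment, Sham-F and AOB-F animals were 31 weeks old after 26 weeks, and PAB-F animals were 28 weeks old after 22 weeks. The study's text gives later ages for the same stages, so the ages serve here only to order the groups. The ventricle that a band does not load directly is called the remote ventricle.

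A sarcomeric myosin carries a pair of heavy chains, which hold the motor, and on each heavy chain an essential and a regulatory light chain. *Myh6* encodes the fast alpha heavy chain and *Myh7* the slow beta heavy chain, and the adult rodent ventricle uses mostly alpha. The balance moves towards beta in the fetal heart, with low thyroid hormone and with pressure overload, which makes it a long-used molecular readout of cardiac load in rodents. *Myl3* and *Myl2* encode the ventricular essential and regulatory light chains, *Myl4* and *Myl7* their atrial counterparts, and *Mylk3* the cardiac kinase that phosphorylates the regulatory light chain. *Myh7b* encodes a further, slow-type heavy chain.

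The 3 heavy chain genes each hold a microRNA in an intron, and the 3 mature sequences belong to 1 family. They are shown because the heavy chain genes and these microRNAs come from the same transcripts. Capitals mark the seed, bases 2 to 8 from the 5′ end. The sequences are those of RefSeq on the GRCr8 build.
rno-miR-208a-3p: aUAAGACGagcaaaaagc
rno-miR-208b-3p: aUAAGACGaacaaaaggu
rno-miR-499-5p: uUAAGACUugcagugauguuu
The first lies within *Myh6* at chr15:32395568-32395585 on the minus strand. The second lies within *Myh7* at chr15:32421648-32421665 on the minus strand. The third lies within *Myh7b* at chr3:164570616-164570636 on the plus strand. The seeds of miR-208a and miR-208b were equal in 7 of 7 bases, and the seed of miR-499 matched theirs in 6 of 7. The libraries held long RNA, so none of these mature microRNAs was measured.

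Library totals lay between 6675287 and 19665439 assigned counts, with a median of 13074486. The cells carried the markers of ventricular cardiomyocytes: the 9 markers on a fixed list (*Tnnt2*, *Tnni3*, *Actc1* and others, without the members) summed to between 46350 and 92890 CPM (a gene's counts scaled to a common library total), and none was at 0 in any library. Markers of other cells differed between groups as well. The 7 endothelial markers summed to between 712.2 and 1212 CPM in RV Sham-F and to between 1881 and 3945 CPM in LV Sham-F, and no endothelial or fibroblast marker was at 0 in any library. The library from the LV of AOB-H replicate 6 stood apart, with an endothelial sum of 5582 CPM against 1433 to 1882 in the other 5 and a ventricular sum of 55120 CPM against 80360 to 83760. In such bulk libraries, fewer cells of a type and less RNA per cell cannot be told apart. *Myh6* and *Myh7* are close paralogs, so reads from their shared stretches may have been assigned to either, and whether the counting used strand is not stated.

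Compared per kilobase of gene length, the members fell into 3 tiers of level. *Myl3* was highest with a median of 106480 normalized counts per kb over the 82 libraries, followed by *Myh6* with 94627, *Myl2* with 49791 and *Myh7* with 19633. *Mylk3* followed with 5542 and *Myh7b* with 1900. The atrial light chains were lowest, with a median of 102.4 for *Myl7* and 33.5 for *Myl4*. No member was at 0 in any library. In the least covered libraries *Myl4* and *Myl7* each rested on 5 reads, whereas *Myh6* rested on at least 66833. Expressed as the highest over the lowest library, *Myl2* and *Mylk3* spanned 3.42-fold each, *Myl3* 6.02-fold, *Myh7b* 8.40-fold, *Myh7* 10.9-fold, *Myh6* 16.9-fold, *Myl4* 64.6-fold and *Myl7* 104-fold. The lowest and the highest *Myl7* library were both in RV PAB-H.

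The *Myh7* share of heavy chain counts ranged from 5.41% to 78.9% over the 82 libraries, and it rose in both failing ventricles under direct load, RV PAB-F and LV AOB-F. In RV Sham-H, the youngest control RV, the lowest share was 5.41%, the median 6.63% and the highest 13.98%. In RV PAB-H the lowest was 13.1%, the median 16.7% and the highest 28.2%. The means were 8.10% ± 3.10 (SD, n = 7) and 18.96% ± 6.13 (SD, n = 6), a difference of 10.9 percentage points. In an exact two-sided permutation test over animals this gave p = 0.00175, or 0.0175 after Benjamini-Hochberg adjustment over all 20 tests of this share between conditions, ventricles and ages. The groups overlapped in 1 library, since 5 of the 6 PAB-H animals lay above every sham.

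At the failing stage the RV spread widely. RV Sham-F ran from 8.20% through a median of 12.1% to 29.8%, and RV PAB-F from 14.4% through 32.5% to 72.1%. The means were 16.7% ± 8.72 (SD, n = 9) and 40.6% ± 22.8 (SD, n = 6), and the difference of 23.9 points had an adjusted p of 0.0304 in the exact permutation test. Only 3 of the 6 PAB-F animals lay above every sham, and 2 of them carried more *Myh7* than *Myh6*.

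The pressure-loaded LV reached the highest shares of all. LV Sham-F ran from 14.1% through a median of 18.6% to 43.7%, and LV AOB-F from 18.8% through 55.5% to 78.9%. The means were 25.7% ± 12.3 (SD, n = 9) and 53.1% ± 21.2 (SD, n = 7), and the difference of 27.5 points had an adjusted p of 0.0304 in the exact permutation test. More *Myh7* than *Myh6* was counted in 5 of these 7 libraries. The compensated LV differed less: LV AOB-H had a mean of 15.9% ± 9.14 (SD, n = 6) against 11.6% ± 3.63 (SD, n = 7) in LV Sham-H, with an adjusted p of 0.315 in the exact permutation test.

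Among the remote ventricles, the share was higher in the RV of failing AOB hearts. RV AOB-F ran from 12.3% through a median of 29.6% to 66.9%, with a mean of 36.6% ± 21.7 (SD, n = 7) against 16.7% in RV Sham-F. The difference of 19.9 points had an adjusted p of 0.0422 in the exact permutation test, and 3 of the 7 animals lay above every sham. The other remote groups did not pass: the differences were 5.73 points in LV PAB-H (adjusted p = 0.0891), 7.60 points in LV PAB-F (0.315) and 2.20 points in RV AOB-H (0.315), all by the same exact permutation test.

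**Figure D1:**
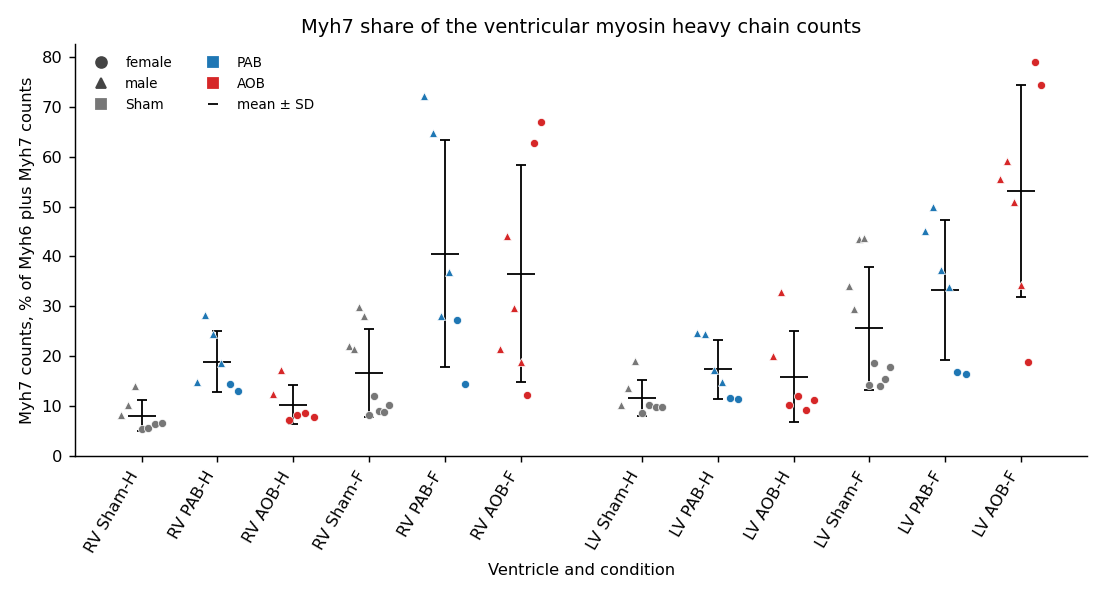
Share of *Myh7* among *Myh6* plus *Myh7* counts in percent (y axis) in each of the 82 libraries, by group (x axis), with males and females drawn apart and the group mean with its SD. All 9 libraries above 50% are banded animals of the failing stage, namely 5 LV AOB-F, 2 RV AOB-F and 2 RV PAB-F libraries.

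Males had higher shares than females in most groups. In RV Sham-F the 4 males ran from 21.5% to 29.8% and the 5 females from 8.20% to 12.1%. In LV Sham-F the males ran from 29.5% to 43.7% and the females from 14.1% to 18.6%. The sexes did not overlap in either ventricle, and these were the only groups to pass, each with an exact permutation p of 0.00794 and an adjusted p of 0.0476 over the 12 groups. Every male lay above every female in 10 of the 12 groups, but outside Sham-F the smallest p that an exact permutation of so few animals allows lay between 0.0286 and 0.0667. Within condition, over all 6 conditions, males exceeded females by 11.35 points in the LV (permutation p = 0.00319, adjusted p = 0.00638 over the 2 ventricles), while the 7.23 points in the RV did not pass (permutation p = 0.0979, also after adjustment). AOB-F was the exception in both ventricles: 2 of its 3 females held the highest shares, 78.9% and 74.3% in the LV and 62.8% and 66.9% in the RV, while the third had 18.8% and 12.3%. The LV libraries of these 2 females also had the lowest ventricular marker sums of their group, 46350 and 46510 CPM against 61360 to 74810 in the other 5, and the part of this in the share was not tested.

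Because banded and sham groups differed in their mix of sexes, the share was also compared within sex, a step added after the values had been seen. The difference was 9.41 points in RV PAB-H (exact permutation p = 0.0019), 19.3 points in RV PAB-F (0.00204), 26.3 points in LV AOB-F (0.00408) and 19.8 points in RV AOB-F (0.0286), unadjusted. By this exact permutation within sex LV AOB-H passed as well, with 5.22 points (p = 0.02), and so did RV AOB-H with 2.74 points (p = 0.0157).

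Within an animal, the LV carried the higher *Myh7* share unless the RV was loaded. RV minus LV was negative in 7 of 7 Sham-H animals (mean -3.53 points, exact sign-flip permutation test, adjusted p = 0.0391), 9 of 9 Sham-F animals (-9.00 points, 0.026) and 7 of 7 AOB-F animals (-16.6 points, 0.0391). It was negative in 6 of 6 AOB-H animals as well (-5.64 points), where the smallest p the design allows, 0.0313, became 0.0521 after adjustment. In the PAB hearts the order turned in most animals: RV minus LV was positive in 5 of 6 PAB-H animals (mean 1.60 points, adjusted p = 0.531) and in 4 of 6 PAB-F animals (7.32 points, 0.292). Tested directly by exact permutation, the RV minus LV difference was 16.3 points higher in PAB-F than in Sham-F animals (adjusted p = 0.0175). The same contrast was 5.13 points in PAB-H (0.0628), -7.56 points in AOB-F (0.0521) and -2.11 points in AOB-H (0.41).

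**Figure D2:**
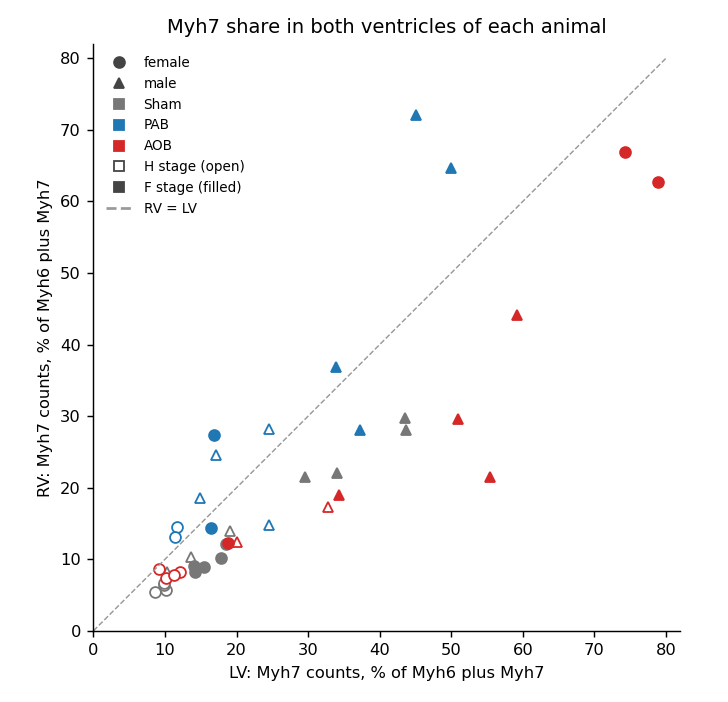
*Myh7* share of the RV (y axis, percent) against that of the LV (x axis, percent), 1 point for each of the 41 animals, by condition. Every sham and AOB animal lies below the line of equal shares, and 9 of the 12 PAB animals lie above it.

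Both ventricles of an animal deviated together. After the mean of each condition was subtracted, the RV and LV shares of the same animal correlated with Pearson's r = 0.852 and Spearman's rho = 0.825 over 41 animals, each with p = 1e-05 in a permutation test within condition, the smallest that 100000 resamples can give. Without the 2 animals whose RV deviations lay farthest from the median RV deviation r was 0.863. With the means of condition and sex removed it was 0.812. By the study's methods, both libraries of a pair come from 1 heart, perfused whole with collagenase before its ventricles were minced apart.

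The older LV controls had a higher share than the younger ones. LV Sham-F exceeded LV Sham-H by 14.02 points (exact permutation, adjusted p = 0.0358) and RV Sham-F exceeded RV Sham-H by 8.55 points (0.0521), and in both ventricles 4 of the 9 older animals lay above every younger one. Ordered by mean, the 12 groups ran from RV Sham-H to LV AOB-F, and no neighbours in that order were farther apart than the larger of their SDs. The 5 highest groups were the F groups other than RV Sham-F.

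As single genes, the heavy chains were tested on raw counts, and their levels are given as normalized counts. In RV Sham-F, *Myh7* ran from 66718 normalized counts through a median of 95388 to 207490, and in RV PAB-F from 96212 through 269270 to 394300. The log2 fold change was 1.05 (SE 0.31, edgeR, adjusted p = 0.0176), and the groups overlapped. *Myh6* ran from 462850 through 674100 to 891890 in RV Sham-F and from 139360 through 486780 to 570580 in RV PAB-F, a log2 fold change of -0.70 that did not pass (SE 0.27, adjusted p = 0.0802). In this comparison 3 of the 8 members passed, against 11.1% of all genes tested. The *Myh7* call rested on single animals: it was lost without RV PAB-F replicate 1 (log2 0.93, adjusted p = 0.0982) or replicate 2 (log2 0.89, 0.0757), the males with shares of 72.1% and 64.6%. Fibroblast markers moved with the same contrast, 5 of 9 higher, with sums of 277.2 to 1997 CPM in RV PAB-F against 153.2 to 509.1 in RV Sham-F and the highest in replicate 1. Their part in the result was not tested.

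In the compensated RV, *Myh7* ran from 44127 through a median of 63563 to 117140 in RV Sham-H and from 97812 through 131890 to 185050 in RV PAB-H. The log2 fold change of 0.99 (SE 0.33) did not pass over all genes (edgeR, adjusted p = 0.0622), but did with sex as a covariate (log2 0.89, 0.0426). *Myh6* differed by -0.35 (SE 0.29, adjusted p = 0.531). Of the 8 members 1 passed here, against 4.5% of all genes. All 9 fibroblast markers were higher in RV PAB-H, with sums of 359.8 to 3028 CPM against 241.8 to 465.1 in RV Sham-H, and their part was not tested.

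In the failing LV neither major heavy chain passed as a single gene. *Myh7* ran from 65431 through a median of 88543 to 209720 in LV Sham-F and from 105590 through 211990 to 294090 in LV AOB-F (log2 0.78, SE 0.30, adjusted p = 0.0679). *Myh6* ran from 257790 through 349070 to 485460 and from 54737 through 203950 to 456040 (log2 -0.69, SE 0.26, adjusted p = 0.0652). The lowest *Myh6* level and the highest *Myh7* share of the series were both in this group. *Myh7* passed with sex as a covariate (log2 0.79, adjusted p = 0.0155). Ventricular marker scaling, which raised the share of all genes called as well, passed *Myh7* (log2 1.02, 0.00864) and *Myh6* (-0.60, 0.0175). *Myh6* also passed without LV Sham-F replicate 3 or LV AOB-F replicate 4 or 5 (0.0114 to 0.0458). *Myh7* did so without LV Sham-F replicate 3 or 4 or LV AOB-F replicate 5 (0.0235 to 0.0367). In the main fit of this contrast 1 of 8 members passed, *Myh7b*, against 12.9% of all genes, while 6 of 8 had an unadjusted p under 0.05, against 28.7%.

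In the remote RV of failing AOB hearts, *Myh7* ran from 91138 through 246770 to 478940, the highest single value of the series. The log2 fold change against RV Sham-F was 1.03 (SE 0.30), close to that of the loaded RV, but with an unadjusted p of 0.000912 the adjusted p was 0.341 by edgeR, in a comparison where 0.0669% of all genes and 0 of 8 members passed. At an unadjusted p under 0.05 it was 2 of 8 members, *Myh7* and *Myl4*, against 4.32% of genes. With sex as a covariate *Myh7* passed (log2 1.15, adjusted p = 0.00883). No member passed in LV PAB-H or LV PAB-F (0% of genes each), in RV AOB-H (0%) or in LV AOB-H (0.0167%) by edgeR, nor by DESeq2. At an unadjusted p under 0.05 there were 0 of 8 members in LV PAB-H (2.55% of genes), LV PAB-F (3.79%) and RV AOB-H (1.43%) and 1 of 8, *Myl3*, in LV AOB-H (20%).

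**Figure D3:**
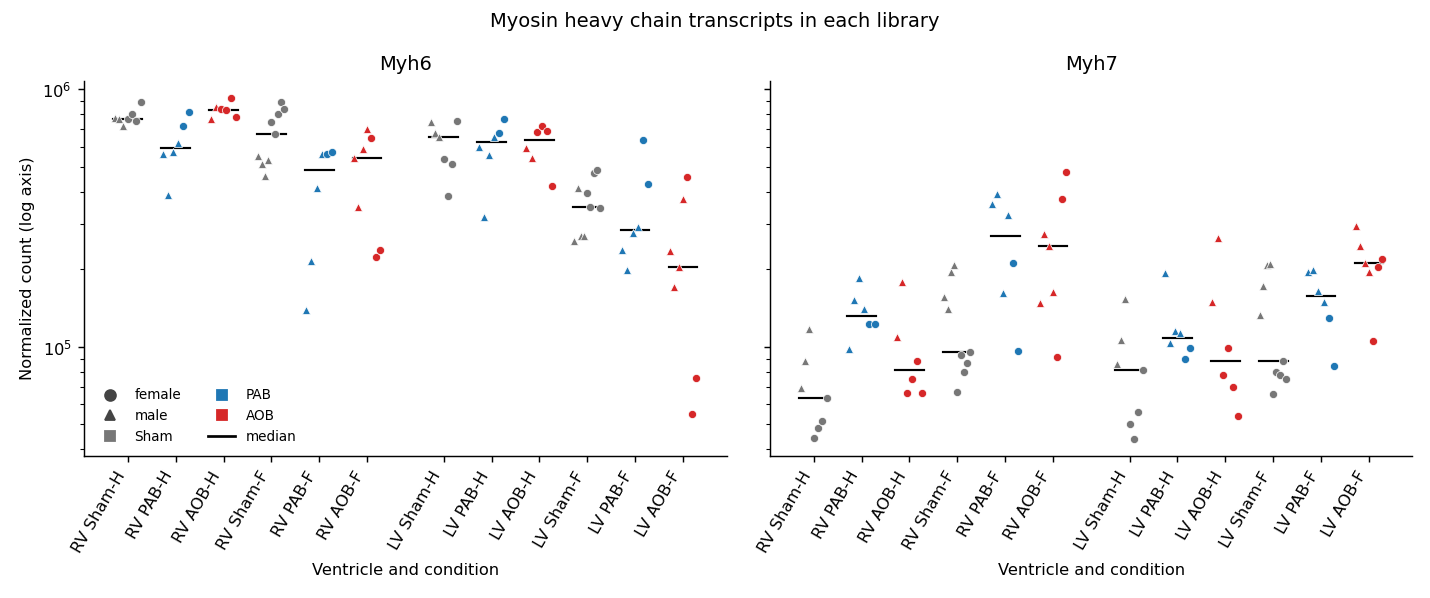
Normalized counts (y axis, log scale) of *Myh6* and *Myh7* in each library, by group (x axis), with group medians. *Myh6* is lowest in LV AOB-F, with a mean of 224760 against 833790 in RV AOB-H, and *Myh7* has its highest means in RV PAB-F, RV AOB-F and LV AOB-F.

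*Myh6* differed between the ventricles in the older hearts. RV Sham-F lay between 462850 and 891890 and LV Sham-F between 257790 and 485460, and the log2 difference was 0.88 (SE 0.24, adjusted p = 0.000857). In AOB-F it was 1.06 (SE 0.28, adjusted p = 0.000559). These contrasts are broad: 74.3% of all genes passed in Sham-F, with 4 of 8 members, and 67.1% in AOB-F, with 5 of 8. In PAB-F the *Myh6* difference was 0.25 (SE 0.30, adjusted p = 0.477), and *Myl3* and *Mylk3* were the 2 members to pass, against 61.2% of genes. With the animal as a block, *Myh7* also passed in PAB-F (log2 0.65, adjusted p = 0.00174), and the response of *Myh6* to PAB-F was lower in the RV than in the LV (log2 difference of responses -0.70, adjusted p = 0.0446). Without the block, 0 of 8 members and 0.351% of genes passed in that test of responses. The animal block raised the genes called in that test to 2.93%. The other 5 tests of responses between ventricles or stages passed 0 of 8 members and 0% of genes by edgeR, and DESeq2 passed no member in any of the 6. At an unadjusted p under 0.05, the responses of the ventricles differed for 1 of 8 members in PAB-F (12.8% of genes), PAB-H (9.22%) and AOB-F (9.71%) and for none in AOB-H (4.83%). Between stages it was 1 of 8 for AOB in the LV (9.6%) and 0 of 8 for PAB in the RV (1.48%).

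At the compensated stage the ventricles differed less. *Mylk3* alone passed in Sham-H (21% of genes) and in AOB-H (7.98%), and 0 of 8 members passed in PAB-H (0.125%), where 2 of 8 had an unadjusted p under 0.05 (10.9% of genes). With the animal as a block 4 members passed in Sham-H, adding *Myh6* (log2 0.39), *Myl3* (-0.37) and *Myl7* (1.01), and 4 in AOB-H, adding *Myh6* (0.47), *Myl2* (0.35) and *Myl7* (1.57). Their adjusted p-values by edgeR lay between 0.0101 and 0.0413. The block raised the share of all genes called as well, to 32.5% in Sham-H and 13.7% in AOB-H.

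Between sham LVs, *Myh6* was lower and *Myl3* higher in the older animals. LV Sham-H ran from 386780 through a median of 651880 to 751830 for *Myh6*, against 257790, 349070 and 485460 in LV Sham-F (log2 -0.75, SE 0.26, adjusted p = 0.0101). *Myl3* rose by 0.56 (SE 0.17, adjusted p = 0.00332) and *Mylk3* fell by 0.31 (SE 0.13, adjusted p = 0.0345). So 3 of 8 members passed, against 57.4% of all genes. The ventricular marker sum was lower in LV Sham-F, 62890 to 72620 CPM against 71260 to 88010 in LV Sham-H, with 1 of its 9 genes higher and 5 lower. Scaled by those markers in place of all genes, the *Myh6* call was lost (log2 -0.44, adjusted p = 0.0534) and the *Mylk3* difference vanished (log2 -0.00, 0.998). The call for *Mylk3* was also lost without any 1 of 4 libraries (adjusted p from 0.0507 to 0.121): LV Sham-H replicates 1 and 7 and LV Sham-F replicates 1 and 9. In the RV, 0 of 8 members and 0.0502% of genes passed with age, and 1 of 8, *Myh7*, had an unadjusted p under 0.05 (5.04% of genes), with a log2 difference of 0.85 (SE 0.31, adjusted p = 0.587).

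With the condition as a covariate, *Myh7* was lower in females in both ventricles, by 0.58 in the RV (SE 0.16, adjusted p = 0.0226) and by 0.90 in the LV (SE 0.12, adjusted p = 3.76e-06) on the log2 scale. In the RV 1 of 8 members passed, against 8.38% of genes. In the LV 4 of 8 passed, against 9.9%: beside *Myh7*, *Myh7b* was higher in females by 0.68 (adjusted p = 0.0184), *Myl4* by 0.73 (0.0331) and *Myl7* by 0.93 (0.00539). No difference between the ventricles in these sex effects was tested.

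The third heavy chain gene, *Myh7b*, had a Pearson r of 0.44 with *Myh6* and of -0.285 with *Myh7* in log2 CPM over the 82 libraries, which share depth and scaling. In LV AOB-F it was counted at 2785, 3392, 3604, 4799, 6428, 9742 and 11581 normalized reads, while LV Sham-F ran from 4503 through a median of 8487 to 19476. The 7 values lay low but 4 of them were within the sham range. The log2 fold change was -0.93 (SE 0.28, adjusted p = 0.0188). The call depended on single libraries: leaving out any of LV Sham-F replicates 8 and 9 or LV AOB-F replicates 1, 2 and 7 gave log2 fold changes of -0.87 to -0.79 with adjusted p-values of 0.0507 to 0.0599. A fit on the compared groups alone gave -0.98 (0.15), where 0.133% of genes were called, and ventricular marker scaling -0.70 (0.0553). In LV AOB-F, where 12.9% of all genes passed, 3 of 6 macrophage markers were higher, with sums of 81.2 to 303.8 CPM against 76.2 to 157.8 in LV Sham-F. So were 2 of 7 endothelial markers, with sums of 2073 to 4183 against 1881 to 3945. Their part was not tested. Between the ventricles of AOB-F hearts *Myh7b* was higher in the RV by 0.76 (SE 0.29, adjusted p = 0.0188), a call lost without LV AOB-F replicate 1, 2 or 4 (0.0506 to 0.0518) and under ventricular marker scaling (log2 0.15, 0.672).

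The ventricular light chains passed in none of the 8 comparisons of banded with sham groups. *Myl2*, the regulatory light chain, had group means from 27380 ± 3002 (SD, n = 7) in LV AOB-F to 37935 ± 6653 (SD, n = 6) in RV AOB-H, and it passed in none of the 24 comparisons. In LV AOB-F its log2 fold change was -0.30 (SE 0.12, adjusted p = 0.0874). Between the ventricles of AOB-F hearts *Myl2* had a log2 difference of 0.27 (SE 0.13, adjusted p = 0.0598). It passed there with the animal as a block (0.27, 0.0222) and without any 1 of 5 libraries (0.0387 to 0.0476), and was lower in the RV under ventricular marker scaling (-0.31, 0.0152). Its lowest library, 14107 in LV AOB-H replicate 6, was the one with the highest endothelial sum. *Myl3*, the essential light chain, had log2 fold changes of -0.45 in LV AOB-H (SE 0.18, adjusted p = 0.17) and -0.37 in LV AOB-F (SE 0.17, adjusted p = 0.125), the latter -0.55 (0.0154) without LV AOB-F replicate 4. Its calls were between ventricles and ages. In RV Sham-F it ran from 78774 through a median of 88701 to 97604, and in LV Sham-F from 130660 through 153070 to 263990, with no overlap. The log2 difference, RV minus LV, was -1.01 (SE 0.16, adjusted p = 2.92e-08), and it was -0.94 (SE 0.19) in PAB-F and -0.60 (SE 0.18) in AOB-F.

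**Figure D4:**
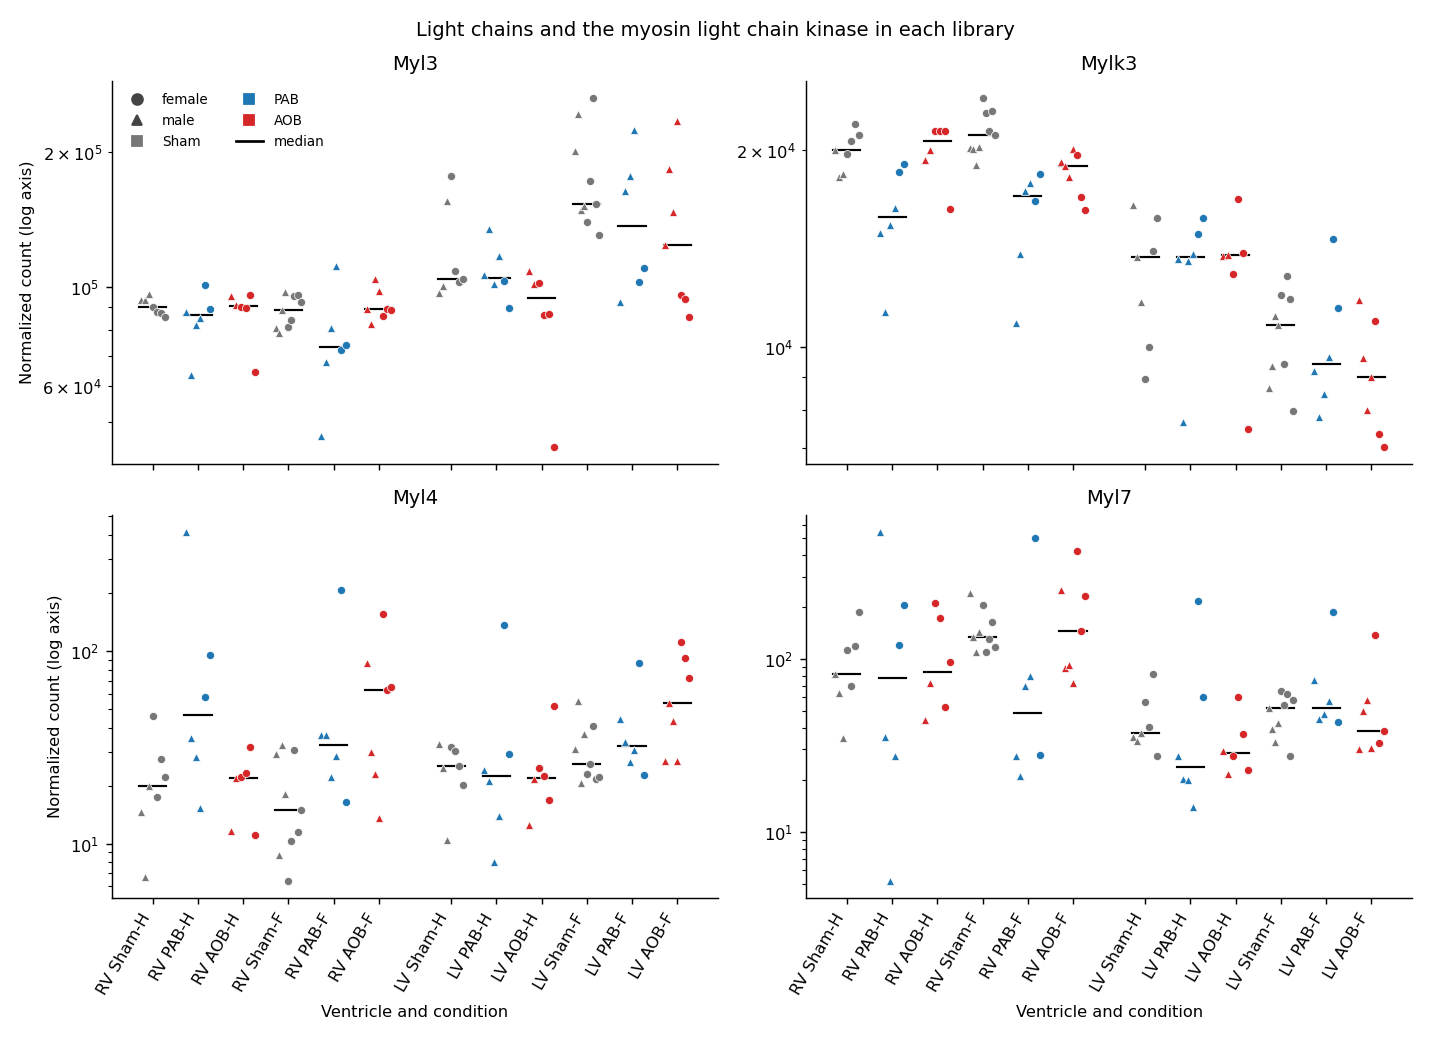
Normalized counts (y axis, log scale) of *Myl3*, *Mylk3*, *Myl4* and *Myl7* in each library, by group (x axis), with group medians. *Myl3* is higher and *Mylk3* lower in the LV than in the RV, most clearly in Sham-F, and single libraries stand far above their groups for *Myl4* and *Myl7*.

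*Mylk3*, the kinase, separated the ventricles most regularly of the members. All 6 RV group means, from 15830 in RV PAB-F to 21312 in RV Sham-F, lay above all 6 LV group means, from 9102 in LV AOB-F to 13219 in LV PAB-H. RV Sham-F ran from 18972 through a median of 21136 to 24009 and LV Sham-F from 7979 through 10809 to 12821, with no overlap. In PAB-H the log2 difference, RV minus LV, was 0.27 (SE 0.15) and did not pass (edgeR, adjusted p = 0.488, 0.125% of genes). It was 1.03 in Sham-F (SE 0.12, adjusted p = 1.16e-11), 1.02 in AOB-F (SE 0.14, 2.92e-09), 0.63 in PAB-F (SE 0.15, 0.000177), 0.63 in Sham-H (SE 0.14, 0.000963) and 0.60 in AOB-H (SE 0.15, 0.00393). The AOB-H call was lost without LV AOB-H replicate 6 (log2 0.49, adjusted p = 0.0622). Of all genes, 74.3% passed in Sham-F, 67.1% in AOB-F, 61.2% in PAB-F, 21% in Sham-H and 7.98% in AOB-H, in either direction. Over these 5 conditions the RV also had the lower endothelial marker sums, with 5 to 7 of the 7 markers lower. In the 3 F conditions 5 or 6 of the 9 ventricular markers were higher in the RV, near the share of all genes. These are the markers of cell content that were read here. Their part in the difference was not tested.

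*Mylk3* was lower in RV PAB-F than in RV Sham-F, while its response to PAB-F did not differ between the ventricles at the threshold (RV minus LV, log2 -0.39, SE 0.19, edgeR, adjusted p = 0.369). RV PAB-F was counted at 10889, 13855, 16715, 17336, 17811 and 18374 normalized reads, against 18972 to 24009 in RV Sham-F, so that all 6 lay below every sham. The log2 fold change was -0.43 (SE 0.14, adjusted p = 0.0299), and it did not pass without replicate 1 (-0.34, 0.19) or replicate 2 (-0.39, 0.0822). These are the 2 animals with the highest *Myh7* share of the group. In RV PAB-H the difference was in the same direction but passed only when the compared groups were fitted alone (log2 -0.33, adjusted p = 0.0424), or with a block for the replicate number, which names different animals.

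The atrial light chains remained traces in all libraries, and both calls of *Myl4* under PAB depended on 1 library each. By length, *Myl4* made up between 0.00758% and 0.53% of *Myl3* plus *Myl4*, and *Myl7* between 0.0239% and 2.33% of *Myl2* plus *Myl7*. In RV PAB-H, *Myl4* was counted at 15.3, 28.2, 35.3, 57.6, 95.1 and 413.9 normalized reads, against 6.67 to 45.7 in RV Sham-H. The log2 fold change was 2.29 (SE 0.54, adjusted p = 0.0106), but 1.06 (0.258) without the highest library, replicate 1. In RV PAB-F the values were 16.5, 22.1, 28.4, 36.5, 36.6 and 207.1, against 6.41 to 32.5 in RV Sham-F. There the log2 fold change was 1.69 (SE 0.52, adjusted p = 0.0232), and 0.62 (0.475) without replicate 5. In RV AOB-F the values were more evenly spread, from 13.7 through a median of 62.4 to 155.0 (log2 1.78, SE 0.50, unadjusted p = 0.000667), which had an adjusted p of 0.301.

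The libraries highest in *Myl4* in RV PAB-H and RV PAB-F were also the highest in *Myl7*. RV PAB-H replicate 1 held 459 *Myl4* and 603 *Myl7* raw counts, together with 247 of *Sln* (sarcolipin, an inhibitor of the calcium pump of the atrium) and 63 of *Mybphl* (an atrial myosin-binding protein), where the other libraries of its group had at most 77 of *Myl4* and 167 of *Myl7*. RV PAB-F replicate 5 held 246, 595, 159 and 50 counts of the same genes. *Sln* and *Mybphl* were the 2 of 7 atrial markers, members apart, that were highest of their group in each of these libraries, and the other 5 markers were not. In LV AOB-H replicate 6, by contrast, a *Myl4* of 51.95 normalized counts went with a *Myl7* of 22.7. Summed over the 7 atrial markers other than members, the groups ranged from 341.2 to 591.1 CPM in RV PAB-H, from 223.4 to 249.6 in RV Sham-H, from 292.4 to 8702 in RV PAB-F and from 246.8 to 327.8 in RV Sham-F. That sum includes *Nppa*, itself a load marker. Among these 7, *Bmp10* was at 0 in 17 libraries and *Mybphl* in 15. The part of atrial cells in the *Myl4* calls was not tested.

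*Myl7* passed in none of the banded against sham comparisons, and differed instead between the ventricles. RV Sham-F ran from 109.8 through a median of 134.8 to 240.8 and LV Sham-F from 27.4 through 52.4 to 65.8, with no overlap. The log2 difference was 1.63 (SE 0.49, adjusted p = 0.00225), and 1.79 in AOB-F (SE 0.55, 0.00341), and both calls held without any 1 library. The 6 highest group means of *Myl7* were those of the 6 RV groups, but that of RV PAB-F rested on replicate 5. That library held 500.9 normalized counts, and the next highest of its group 79.7. The median raw count was 43 in RV PAB-F and 64 in LV PAB-F. Between the ventricles of PAB-F hearts the log2 difference was 0.69 (SE 0.58, edgeR, adjusted p = 0.306). With the animal as a block it was 0.01 (0.993). *Myl4* did not share the higher *Myl7* level in the RV of Sham-F hearts: with the animal as a block it was lower there (log2 -0.80, adjusted p = 0.0456).

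**Figure D5:**
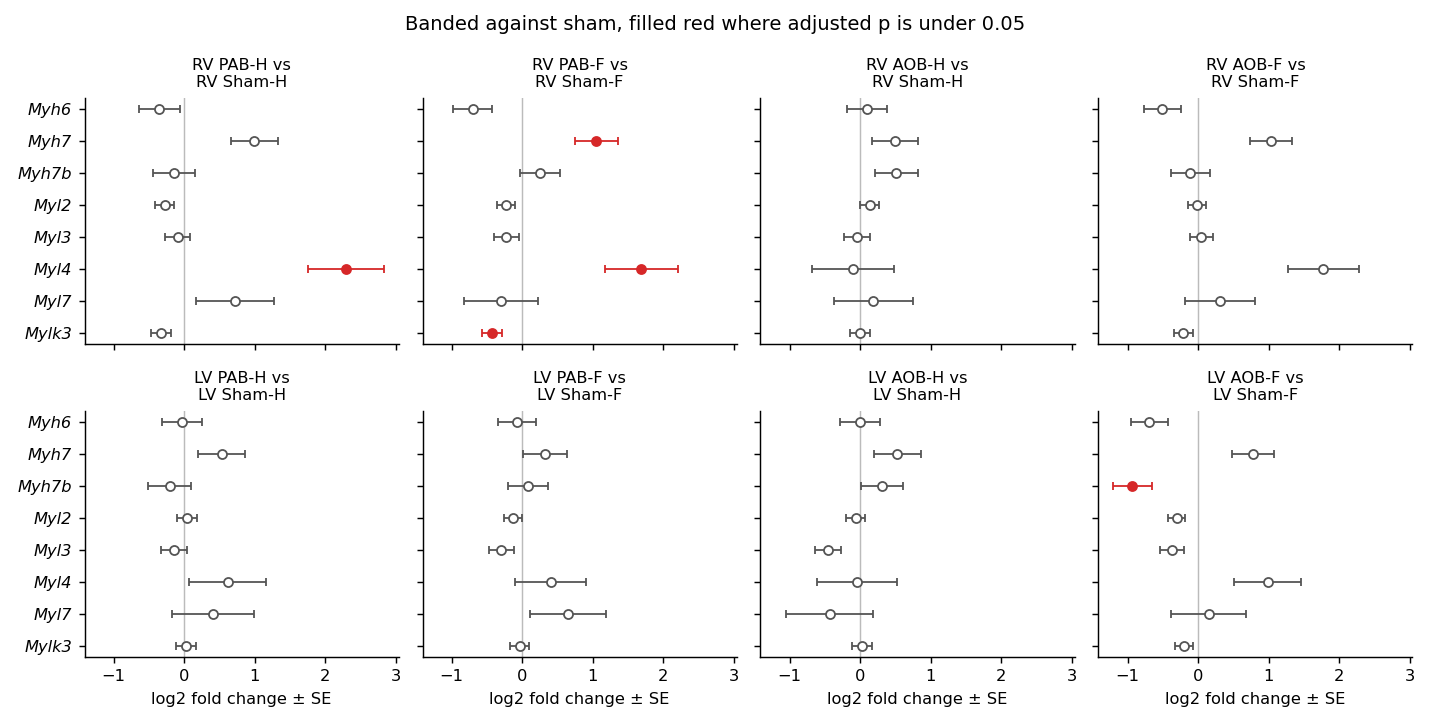
Log2 fold change with its SE (x axis) of each of the 8 members (y axis) in the 8 comparisons of banded with stage-matched sham groups of the same ventricle, with filled points for an adjusted p under 0.05. The 5 filled points are *Myl4* in RV PAB-H, *Myh7*, *Myl4* and *Mylk3* in RV PAB-F, and *Myh7b* in LV AOB-F.

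In all, 26 of 192 tests of a member in a comparison passed, or 13.5%, against 14% of the tests of all genes in the same 24 comparisons. *Mylk3* passed in 7 of the 24 comparisons and *Myl3* in 4, *Myh6*, *Myh7*, *Myh7b*, *Myl4* and *Myl7* in 3 each, and *Myl2* in none. The comparisons share control groups and animals and are not independent.

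Over the 82 libraries, *Myh6* and *Myh7* ran against each other (Pearson's r of log2 CPM -0.56), and *Myh6* ran with *Mylk3* (0.73). *Myl3* ran against *Mylk3* (-0.47). The genes most like each member were sought among those with a mean over 50 normalized counts. *Mylk3* was followed most closely by *Fbxo32* (0.965), a muscle ubiquitin ligase, *Rbfox1* (0.946), a splicing factor, and *Kcnj3* (0.944), a potassium channel subunit that is also on the atrial list. *Myl3* was followed by *Npepl1* (0.96), *Csnk2b* (0.956), a casein kinase subunit, and *Psmb5* (0.955), a proteasome subunit. *Myh6* was followed by *Wnt5a* (0.882), a secreted ligand, *Phkg1* (0.88), a phosphorylase kinase subunit, and *Pfkm* (0.873), muscle phosphofructokinase. *Myh7* had looser company in *Scn3b* (0.785), a sodium channel subunit, *Tgfb2* (0.764), a growth factor, and *Dusp3* (0.756), a phosphatase. *Myh7b* was followed by *Myo19* (0.825), *Vegfa* (0.815) and *Pla2g4b* (0.804), and *Myl2* by *Ndufb10* (0.848), *Ndufb5* (0.834), both subunits of respiratory complex I, and *Tcea3* (0.831). For the scarce *Myl4* and *Myl7* no gene exceeded 0.505 and 0.58. All points share libraries and the difference between ventricles, so these are descriptions.

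Other genes of the myosin machinery were read from fixed lists. Of 11 other heavy chain genes 4 were testable, and *Myh10*, a non-muscle heavy chain, was higher in RV PAB-F by 0.42 on the log2 scale (adjusted p = 0.0252) and in LV AOB-F by 0.44 (0.0146), where the smooth muscle heavy chain *Myh11* was higher as well (0.77, 0.0435). Of 9 other light chain genes 6 were testable. *Myl1*, the fast skeletal essential light chain, was higher in RV PAB-H (log2 1.71, adjusted p = 0.0473), RV PAB-F (1.83, 0.011) and LV AOB-F (1.34, 0.0485), and was the 1 light chain of that list to pass in each. These counts stand against 4.5%, 11.1% and 12.9% of all genes. Of 8 markers of skeletal muscle fibres 4 were testable, and 1 of these was higher in RV PAB-H (*Acta1*, also a load marker), 2 in RV PAB-F (*Acta1* and *Tnnt3*) and none in LV AOB-F, where *Ckm* was lower. The 8 summed to 3246 to 4929 CPM in RV PAB-H against 3019 to 3632 in RV Sham-H, to 2709 to 5125 in RV PAB-F against 2750 to 3264 in RV Sham-F, and to 2606 to 7932 in LV AOB-F against 5108 to 7462 in LV Sham-F. Their part in the fast skeletal genes was not tested.

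The list of phosphorylation, assembly and binding factors held 14 testable genes of 17. *Mybpc2*, the fast skeletal myosin-binding protein C, was higher in RV PAB-H (log2 1.08, adjusted p = 0.0272), RV PAB-F (1.26, 0.00131) and LV AOB-F (1.496, 0.000112). *Ppp1r12c*, a phosphatase subunit gene, was higher in RV PAB-F (0.42, 0.0318), and *Mybph*, a myosin-binding protein, was lower there (-0.75, 0.0367). No other gene of the list passed in these 3 comparisons. The median log2 fold change of the list was -0.06, -0.02 and 0.11, against 0.00, 0.02 and 0.04 over all genes tested.

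Regulators of the heavy chain genes made up a list of 31, of which 26 were testable. In RV PAB-F 1 rose and 6 fell, against 11.1% of all genes called in either direction. *Dio2*, the deiodinase that activates thyroid hormone, rose (log2 1.25, adjusted p = 0.0169), while the thyroid hormone receptor *Thra* (-0.40, 0.037) and its partners *Rxrg* (-0.67, 0.00318) and *Rxra* (-0.35, 0.0379) fell. The transcription factors *Mef2a* (-0.74, 0.000539), *Tbx5* (-0.53, 0.0149) and *Hey2* (-0.57, 0.0263) fell as well. In RV PAB-H *Dio2* rose (1.33, 0.0358) and *Rxrg* fell (-0.56, 0.0356), so 2 of 26 against 4.5% of genes. In LV AOB-F *Thra* (-0.45, 0.011) and *Rxrb* (-0.43, 0.00538) fell, 2 of 26 against 12.9%. The list's median log2 fold change was -0.18, -0.23 and -0.08 in RV PAB-H, RV PAB-F and LV AOB-F. None of the 4 lists had a gene that passed in LV AOB-H or in the 4 remote comparisons.

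Load markers were read as well, from a list chosen with earlier results of these data known, so they are no independent check of the labels. Of *Nppa*, *Nppb*, *Acta1* and *Ankrd1*, 3 passed in RV PAB-H (4.5% of all genes) and 4 in RV PAB-F (11.1%). In LV AOB-F 2 passed (12.9%), and in RV AOB-F 1, *Nppa* (0.0669%). None of the 4 passed in LV AOB-H (0.0167%), in RV AOB-H (0%) or in the LV of PAB hearts (0% at each stage).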

How the data were processed

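Per the labels and the study's methods, the authors digested each heart, depleted ribosomal RNA, sequenced paired 150-base reads, trimmed them with Trim Galore, aligned them with STAR to Rnor6.0 and counted genes with featureCounts. The deposited table holds raw counts (used for all tests), a signal that the authors made by dividing counts by DESeq2 size factors, and their FPKM. The DESeq2 version was 1.28.1 by the submitters' notes. The signal and the FPKM served only to recover gene lengths for values per kb. Printed levels ("normalized counts") are raw counts divided by the library total times its TMM factor from edgeR. They were then multiplied by the mean of that product over all libraries. The deposited table has no columns of other samples.

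Members and gene lists were chosen with earlier results of these data known. edgeR 4.0.16 (R 4.3.3) fitted 12 group means to all 82 libraries: TMM factors, filterByExpr (11954 genes), quasi-likelihood test, Benjamini-Hochberg adjustment over all genes tested. A gene passed at an adjusted p under 0.05. Sex was tested in 1 ventricle at a time with condition as covariate. Shares are of raw counts, and their counting error was small (95% Wilson intervals at most 0.313 points wide, counting error only). Share tests were two-sided exact permutations over animals. Replicates are separate animals, and no library matched another of its group within sampling noise. RV and LV libraries of a number come from 1 animal by the labels, and their deviations from group means correlated with a median r of 0.186 to 0.297 by condition, against -0.069 to -0.014 between animals. The test code was checked on simulated counts. Named genes were the 8 members, the 3 genes most correlated with each, and list genes that passed. Alternatives were other scalings, no filter, DESeq2 1.42.0, covariates, blocks and leaving out each library.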

Additional observations from a re-analysis of the deposited data

Results flagged for a closer look

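Among 108 groups of values (8 members and the *Myh7* share in 12 groups) 15 held a library set apart from the rest of its group by a gap test at the 95% level, which chance gives in about 1 in 20 groups. Of these, 10 were atrial light chain values. *Myl4* was highest by a gap at 413.9 normalized counts in RV PAB-H replicate 1, 207.1 in RV PAB-F replicate 5, 136.3 in LV PAB-H replicate 5, 86.1 in LV PAB-F replicate 5 and 51.95 in LV AOB-H replicate 6. *Myl7* was highest by a gap at 543.8 in RV PAB-H replicate 1, 500.9 in RV PAB-F replicate 5, 216.1 in LV PAB-H replicate 5, 187.4 in LV PAB-F replicate 5 and 137.9 in LV AOB-F replicate 5. In 4 libraries both genes stood apart together. Replicate 5 of PAB-F stood apart in both of its ventricles.

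AOB-H replicate 6 was low for *Myl3* in both ventricles, at 43867 in the LV and 64705 in the RV, and low for *Myl2* in the LV at 14107. This animal had the highest endothelial marker sum of its group in both ventricles, 5582 CPM in the LV and 2693 CPM in the RV. The other flagged values were a high *Myh7* of 194450 in LV PAB-H replicate 1 and a low *Mylk3* of 7666.9 in LV PAB-H replicate 2.

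The response of the *Myh7* share to PAB at the failing stage differed between the ventricles by 16.3 percentage points, RV minus LV, with an exact permutation p of 0.0016 and an adjusted p of 0.0175 over 20 tests.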

How the results depend on the processing

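The number of members passing moved by over 1.5 times in these cases. In RV PAB-H (1) it was 2 under ventricular marker scaling, 2 with sex as a covariate and 3 with only the compared groups fitted. In LV AOB-F (1) it was 3, 2 and 0 under the same settings. The share of all genes called moved too, from 4.5% to 6.65%, 2.73% and 14.9% in RV PAB-H and from 12.9% to 28.2%, 13.9% and 0.133% in LV AOB-F. In RV AOB-F (0) it was 1 with the sex covariate. Between ventricles it was, in Sham-H (1), 2 with upper quartile factors, 2 under marker scaling, 3 with the compared groups alone and 4 with the animal block; in AOB-H (1), 2 with the compared groups alone and 4 with the animal block. The PAB-F response (0) gave 1 with the animal block, which changed no call in the other tests of responses. A block by replicate number, which pairs different animals (r of same-numbered deviations from -0.446 to 0.452), gave 2 in RV PAB-H, 1 in RV PAB-F, 0 in LV AOB-F and 2 in RV Sham-F against RV Sham-H. Leaving out 1 library at a time gave 0 to 3 in RV PAB-H, 1 to 3 in RV PAB-F, 0 to 3 in LV AOB-F, 0 to 1 between the ventricles of PAB-H and of AOB-H, 2 to 3 in PAB-F, 4 to 6 in AOB-F and 2 to 4 for age in the LV; the other counts stayed at their value.

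Marker scaling moved the median of all genes by -0.60 to 0.28 (log2), and the other settings by at most 0.07. Relative to those markers *Myl2* turned from higher to lower in the RV of AOB-F hearts (log2 -0.31, adjusted p = 0.0152). DESeq2 with shrunken fold changes added *Myh6* in RV PAB-F (-0.66, 0.0478).

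For the *Myh7* share, p-values come from exact permutations. On the log2 ratio of *Myh7* to *Myh6*, 2 results that missed the threshold as shares passed: age in the RV (1.09, exact permutation, adjusted p = 0.0351 against 0.0521) and the PAB-H response (0.77, 0.0303 against 0.0628). The p-values of the other alternatives are unadjusted and set against the unadjusted p. The number block gave 20.3 points in RV PAB-F (0.0625), 24.9 in LV AOB-F (0.0625) and 17.9 in RV AOB-F (0.188). Within sex, LV AOB-H gave 5.22, RV AOB-H 2.74 and the PAB-H response 5.22 points (0.0571). With no replicate block, RV minus LV had an exact permutation p of 0.0758 in Sham-H (-3.53), 0.188 in AOB-H (-5.64), 0.0939 in Sham-F (-9.00) and 0.17 in AOB-F (-16.6). Without 1 animal, age in the RV ranged from 6.91 to 9.61 points, LV PAB-H from 4.28 to 6.97, the PAB-H response from 3.98 to 7.40 and the AOB-F response from -9.23 to -4.65, each crossing the threshold for some animals. The cause was not tested. Depth limited only *Myl4* and *Myl7*, with as few as 5 reads.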

Other observations

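Rows named after the microRNA genes within the heavy chain genes, counted from long RNA and not from mature microRNA, were looked at after their values had been seen. *Mir208a* was at 0 in all 82 libraries, which allows up to 3 reads in each. *Mir208b*, which lies within *Myh7*, held 32 to 718 raw counts, and *Mir499*, which lies within *Myh7b*, 0 to 23. In LV AOB-F *Mir208b* had a mean of 104.7 ± 106.7 normalized counts (SD, n = 7), against 324.1 ± 248.1 (SD, n = 9) in LV Sham-F. The log2 fold change was -1.63 (SE 0.40, edgeR, adjusted p = 0.00403), in the same libraries in which *Myh7* had a log2 fold change of 0.78. It was also lower in the LV than in the RV of AOB-F hearts (RV minus LV, log2 1.17, adjusted p = 0.00995) and higher in female than in male LVs (1.19, 0.00183), where *Myh7* was lower. In RV PAB-F, where *Myh7* rose, the log2 fold change of *Mir208b* was -0.65 (adjusted p = 0.277).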
